A study of Mus musculus with 16 samples.

Results

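The growth hormone, STAT5 and IGF axis was followed through 10 genes of the 38087 in the deposited count table, chosen by their symbols: the growth hormone receptor Ghr, the transcription factors Stat5a and Stat5b, the STAT5 target genes Socs2 and Cish, the ligand Igf1, its receptor Igf1r, and the IGF binding proteins Igfbp2, Igfbp3 and Igfbp5. All 10 were found. Total RNA of whole gonads was sequenced in 5 germ-free (GF) and 4 conventionally raised (CV) ovaries and in 3 GF and 4 CV testes. GF mice are kept without microbes and CV mice carry a gut microbiota. All 4 groups were labelled as C57BL/6j mice of 15 to 16 weeks, sampled 2 to 4 hours into the light phase (zeitgeber time) and fed ad libitum; the labels name no transgene or other treatment. The series title speaks of female mice, whereas the sample labels give the testes as male, so tissue and sex are 1 factor. Whether each library is a separate animal is not stated in the labels, so p-values measure only the spread between these libraries, which may be technical.

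Pituitary growth hormone binds its receptor and activates the kinase JAK2, which phosphorylates STAT5A and STAT5B. The phosphorylated STATs enter the nucleus and raise, among others, Igf1 and the feedback inhibitors Socs2 and Cish. In the ovary, prolactin acts through the same STATs in luteal cells, and granulosa cells of growing follicles make IGF1. In the testis the IGF receptor acts in Sertoli and Leydig cells. IGF binding proteins hold IGFs in the tissue fluid and are cut by proteases such as pappalysin.

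STAT5 binds inverted repeats of the form TTCNNNGAA, which read the same on both strands. Promoter windows of 300 bases, from 250 before to 50 after RefSeq's gene start, were taken from RefSeq (GRCm38.p6) for 9 of the 10 genes; Socs2 is the other. The motif stood in 1 of these 9 genes, Cish, and in 8.3% of all 32851 RefSeq promoter windows. Ghr, Igfbp2, Stat5a and Stat5b each had a second window, so a count of genes is not a count of windows. The second Igfbp2 window (chr1:72825137-72825436) held no motif either and is not printed. Cish held 2 copies, whose first bases lay 0 and 11 bases from that start, the letters TTCCTGGAA and TTCTTGGAA. The tighter form TTCCNGGAA, which is a subset of the first motif, stood in 1.15% of all windows, and the first Cish copy has it. The windows of Cish (chr9:107296409-107296708, plus strand), where the motif copies are in capitals, of Igf1 (chr10:87860861-87861160, plus strand), the ligand of the axis, and of Igfbp2 (chr1:72824230-72824529, plus strand), the gene that differed between GF and CV testes, follow 5′ to 3′.
Cish: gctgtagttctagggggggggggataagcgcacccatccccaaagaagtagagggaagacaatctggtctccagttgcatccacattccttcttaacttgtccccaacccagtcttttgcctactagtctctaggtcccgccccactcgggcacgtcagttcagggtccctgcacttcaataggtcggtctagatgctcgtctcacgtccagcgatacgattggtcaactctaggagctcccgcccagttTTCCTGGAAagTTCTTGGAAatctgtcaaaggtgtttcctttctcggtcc
Igf1: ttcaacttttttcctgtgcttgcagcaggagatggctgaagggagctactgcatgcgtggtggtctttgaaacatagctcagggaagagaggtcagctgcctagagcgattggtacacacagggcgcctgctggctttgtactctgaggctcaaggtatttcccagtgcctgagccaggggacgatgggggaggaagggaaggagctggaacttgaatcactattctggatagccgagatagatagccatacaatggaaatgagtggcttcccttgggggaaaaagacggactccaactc
Igfbp2: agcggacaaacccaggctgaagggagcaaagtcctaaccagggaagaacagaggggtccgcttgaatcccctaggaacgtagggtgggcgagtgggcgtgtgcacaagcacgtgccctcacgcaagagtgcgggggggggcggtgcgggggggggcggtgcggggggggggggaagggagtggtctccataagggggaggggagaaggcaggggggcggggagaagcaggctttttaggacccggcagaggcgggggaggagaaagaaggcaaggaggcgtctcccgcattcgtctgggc
The absence of these letters from the windows of the other 8 genes concerns those windows alone. In the GENCODE M21 annotation of GRCm38, Igfbp2 (chromosome 1, 72824503 to 72852474, plus strand) and Igfbp5 (72857932 to 72874884, minus strand) lie 5.5 kb apart, and Stat5b and Stat5a lie 8.6 kb apart on chromosome 11. Igf1 spans 87858265 to 87937042 of chromosome 10, Igf1r 67952827 to 68233668 of chromosome 7, Ghr 3317760 to 3583492 of chromosome 15 and Cish 107296026 to 107302784 of chromosome 9. The RefSeq starts of Cish and Igf1 used for the windows lie downstream of these GENCODE starts, inside the spans given, so the windows do not cover the upstream starts.

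Library totals were 13294039 to 15907297 counts in GF ovaries, 12912251 to 15141027 in CV ovaries, 26015487 to 27188919 in GF testes and 25880591 to 28266867 in CV testes. Levels are CPM, the counts scaled to library size, with TMM scaling over all 16 libraries, and an adjusted p is from edgeR's quasi-likelihood F test with Benjamini-Hochberg adjustment over all genes tested. A gene is said to be called where that p is under 0.05. The biological coefficient of variation was 18.5% between ovaries and 4.17% between testes. Spermatid markers summed to 15130 to 16020 CPM in GF testes and 15950 to 16940 in CV testes, and to at most 1.53 CPM in any ovary, as the tissue labels state. Nnt is the mitochondrial transhydrogenase that C57BL/6J mice lack in working form. It averaged 125 ± 15.6 CPM in GF ovaries and 58.5 ± 2.02 in CV ovaries (SD). In testes it averaged 136 ± 4.74 CPM in GF and 105 ± 3.63 in CV. Its part in the results below was not tested. All groups carry the same strain label, and a difference in genetic background between GF and CV mice, if any, cannot be told apart from microbiota. The second CV testis library stood apart: its liver markers summed to 48.99 CPM, against 9.2 to 13.3 in the other CV testes and 18.3 to 21.2 in GF testes.

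**Figure D1:**
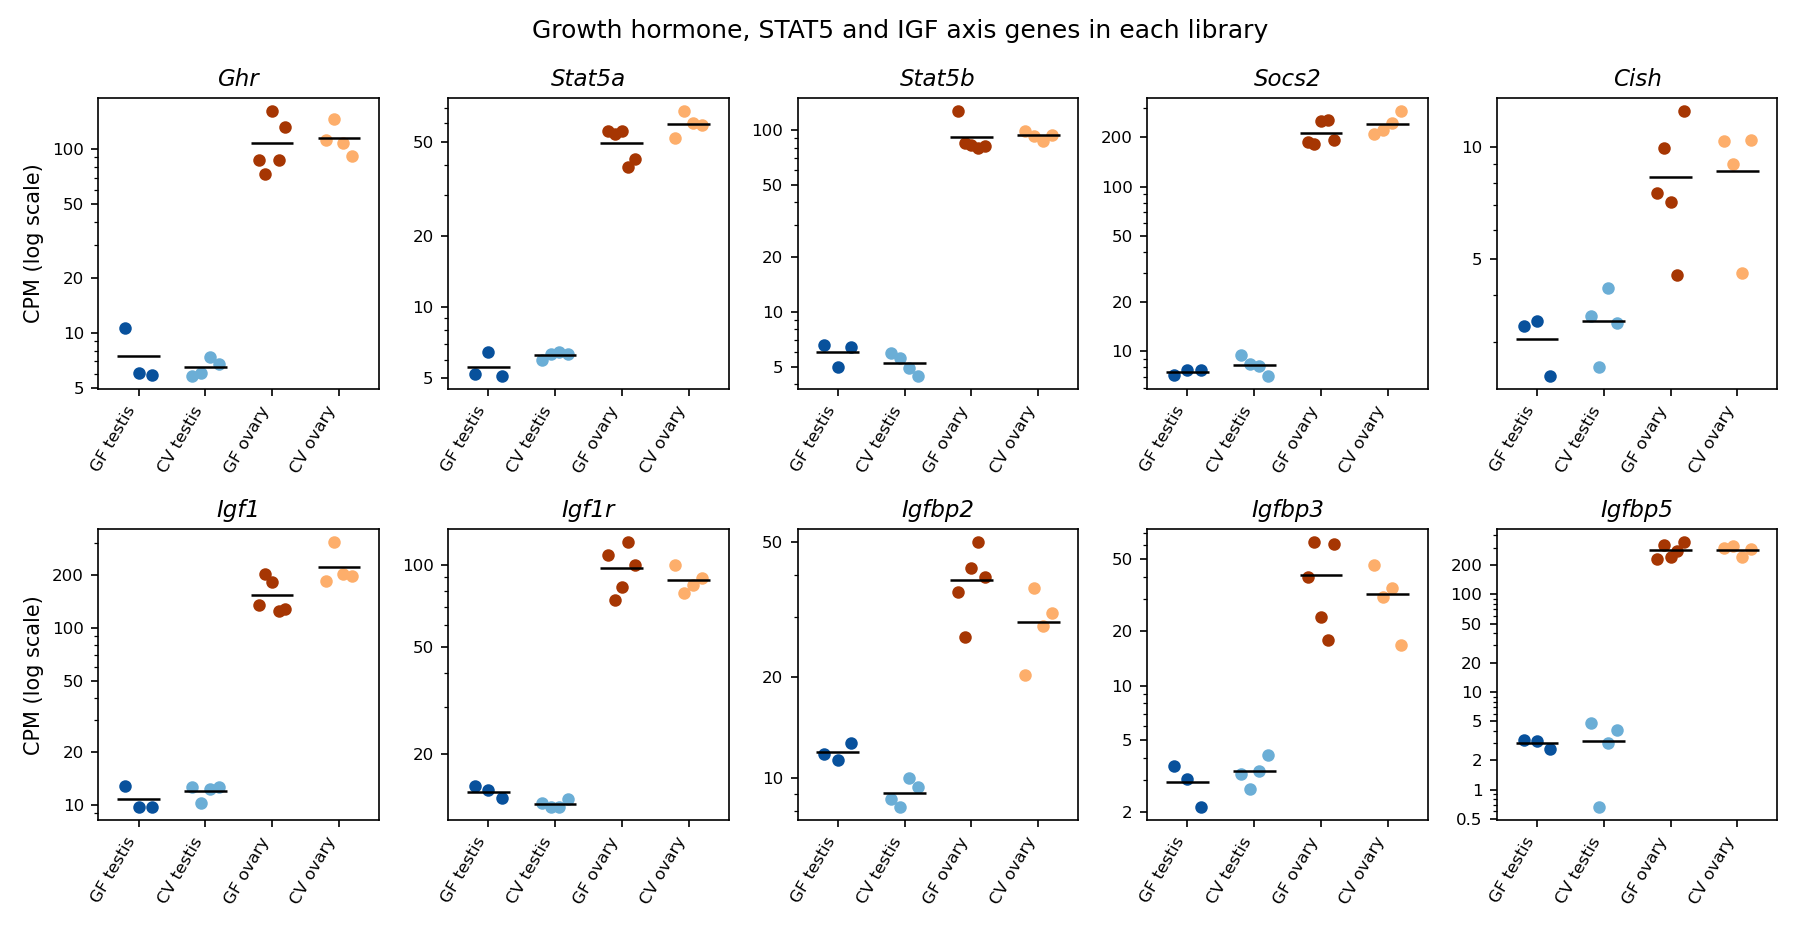
CPM (log axis) of each of the 10 genes in every library, with GF and CV testes on the left and GF and CV ovaries on the right of each panel; points are libraries and bars are group means. All 10 genes lie lower in every testis than in any ovary, and GF and CV points of a tissue overlap except for Igfbp2 and Igf1r in the testis.

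All 10 genes were lower in testis than in ovary, in GF mice and in CV mice alike, and the libraries of the 2 tissues did not overlap for any of them. Over all genes, 43.4% were called lower and 45.7% higher in GF mice, and 43.8% lower and 47.4% higher in CV mice. Non-overlapping groups were seen for 87.7% and 89.1% of all genes in GF and CV mice, so most genes differ between these tissues. The median log2 fold change of the 10 genes was -3.79 in GF mice and -3.67 in CV mice, beside 0.04 and 0.11 over all genes tested. The higher and lower calls over all genes were 9706 and 9214 in GF mice, and 10073 and 9293 in CV mice. Scaled by library totals without TMM, the median of all genes moved to -0.75 and -0.69, and these calls became 7453 and 11908, and 7777 and 11932; all 10 genes remained called lower. In whole tissue, fewer cells of a type and less RNA per cell cannot be told apart.

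Igfbp5, a binding protein held in the extracellular matrix, differed most. Its level was 3.25, 3.18 and 2.65 CPM in GF testes, against 231, 322, 238, 276 and 339 CPM in GF ovaries. In CV mice it was 4.87, 0.668, 3.03 and 4.11 CPM in testes, against 300.3, 313, 243 and 292 CPM in ovaries. The second CV testis, which held 13 counts of this gene where the other CV testes held 60 to 94, was the lowest of all 16 libraries. The spread between CV testes was 57.8% of their mean, where counting error alone gives 12.6%. Igfbp5 was 91.1-fold lower in testis in GF mice (log2 -6.51 ± 0.19 SE, adjusted p = 2.3e-10) and 89-fold lower in CV mice (-6.48 ± 0.37, 1.49e-06). Socs2, a feedback brake on the growth hormone receptor, came next, with 7.13 to 7.73 CPM in GF testes, against 183 to 255 CPM in GF ovaries, and 7.1 to 9.48 CPM in CV testes, against 209 to 288 CPM in CV ovaries. It was 27.9-fold lower in testis in GF mice (-4.80 ± 0.16 SE) and 28.6-fold lower in CV mice (-4.84 ± 0.13).

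The ligand, both receptors and the STATs formed the middle of the range. Igf1 was 14.1-fold lower in testis in GF mice and 18.2-fold lower in CV mice. Ghr was 14.1-fold and 17.3-fold lower, and Stat5b 14.9-fold and 17.7-fold lower, in GF and in CV mice. Stat5a was 8.66-fold lower in GF mice and 9.34-fold lower in CV mice. Igf1r was 6.58-fold lower in GF mice and 6.63-fold lower in CV mice. Igfbp3, the main carrier of circulating IGF1, was 13.7-fold lower in GF mice and 9.37-fold lower in CV mice, with SEs of 0.54 and 0.33 on the log2 scale. Its adjusted p of 0.000186 in GF mice and 2.11e-05 in CV mice were the highest of these 6 genes.

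The smallest differences were those of Igfbp2 and Cish. Igfbp2 had a log2 fold change of -1.67 ± 0.18 in GF mice and -1.65 ± 0.16 in CV mice. Cish, a STAT5-induced inhibitor of cytokine receptors, had -1.41 ± 0.31 (adjusted p = 0.00133) in GF mice and -1.31 ± 0.25 (0.000357) in CV mice. Its level was 2.44 to 3.43 CPM in GF testes, against 4.54 to 12.4 CPM in GF ovaries, and 2.57 to 4.2 CPM in CV testes, against 4.58 to 10.4 CPM in CV ovaries. The 2 STAT5 targets thus stood at opposite ends of the list, Socs2 second and Cish last. The difference between them was not tested.

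**Figure D2:**
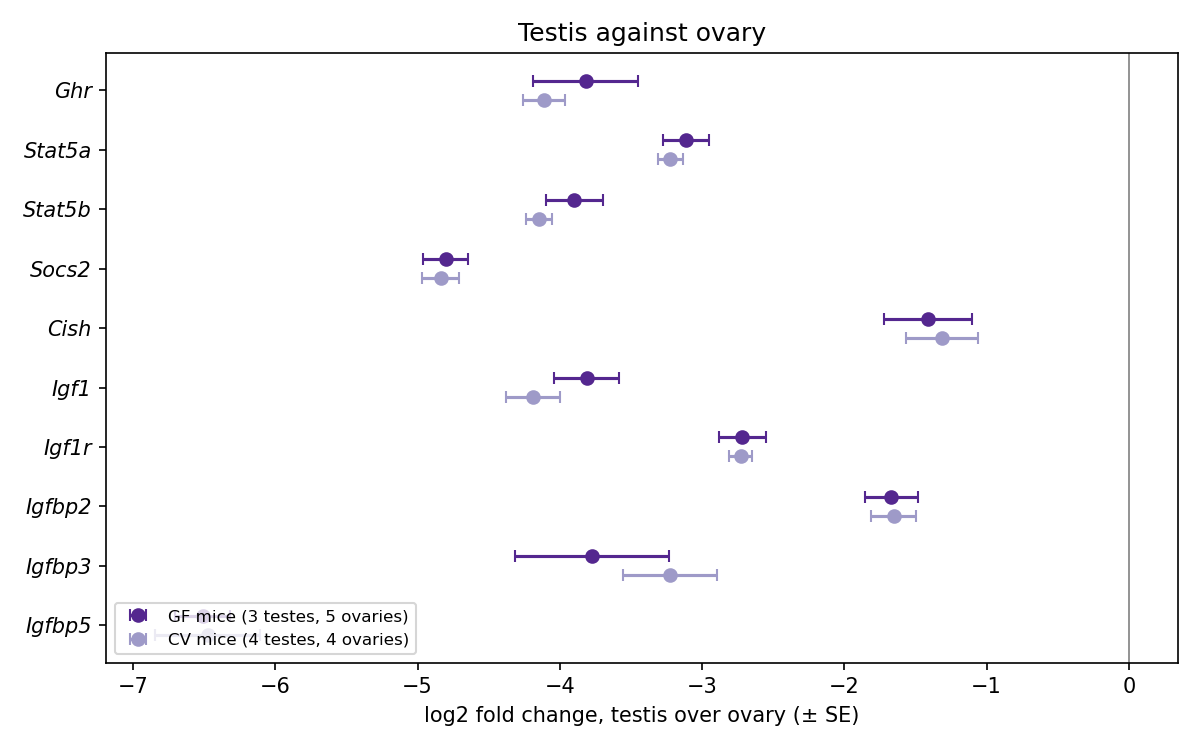
Log2 fold change, testis over ovary, of each gene with its SE, in GF mice (dark, upper) and CV mice (light, lower). All 20 values lie left of 0, from -6.51 for Igfbp5 in GF mice to -1.31 for Cish in CV mice.

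Per kilobase of exon, the order of the genes differed between the tissues. The length used counts every annotated exon base of a gene. By it, Igfbp5 led in the ovary at 46.8 ± 8.02 CPM per kb in GF and 47.8 ± 5.1 in CV (SD). No library then overlapped the next gene, Socs2. That length is 9531 bases for Socs2, whose longest transcript has 4242, and 6006 bases for Igfbp5 by both measures. The lead of Igfbp5 over Socs2 and the lack of overlap thus depend on the length used. Igfbp2 led in the testis at 6.47 ± 0.38 CPM per kb in GF and 4.91 ± 0.43 in CV, with no library overlapping the next, Igf1. Igfbp5 was the ninth in GF testes and the last in CV testes, with libraries that overlapped those of Cish in both. The length is 6419 bases for Cish, whose longest transcript has 4697, so the order of Igfbp5 and Cish also depends on the length used. In the ovary Cish was last, at 1.29 ± 0.47 CPM per kb in GF and 1.34 ± 0.43 in CV, below every library of the gene before it. The ranges of most neighbours between the first and the last overlapped, so their order is not settled by these libraries. The ratio of Stat5a to Stat5b per kb ran from 0.613 to 1.005 in GF testes and 0.79 to 1.11 in CV testes, and from 0.341 to 0.523 in GF ovaries and 0.407 to 0.565 in CV ovaries. Stat5b thus exceeded Stat5a in every ovary by that length. The length is 7133 bases for Stat5a and 5539 for Stat5b, but their longest transcripts have 3958 and 5213 bases. With the longest transcripts every ratio would be higher, so whether Stat5a or Stat5b leads in the testis depends on the length used. Of the Stat5a sequence windows of 100 nt, 3.44% are also in Stat5b, and 2.31% of those of Socs2 are also in Gm9847; reads from these cannot be assigned by sequence.

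Of the 7 IGF binding protein genes measured, Igfbp7 took the largest part of their summed RNA per kb. The shares of the other genes thus depend on counting Igfbp7 in the sum. They are shares of RNA and do not measure IGF binding. Igfbp7 held 62.1% in GF and 64% in CV testes, and 59.6% in GF and 60.7% in CV ovaries. Igfbp5 held 0.856% in GF testes and 0.849% in CV testes, and 11.3% in GF ovaries and 11.8% in CV ovaries. Igfbp2 held 11% in GF testes and 7.97% in CV testes, and 5.17% in GF ovaries and 3.84% in CV ovaries. The share of Igfbp2 depends on the gene length used, and with the longest transcript it was 14.6% in GF testes, 10.7% in CV testes, 6.99% in GF ovaries and 5.23% in CV ovaries.

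**Figure D3:**
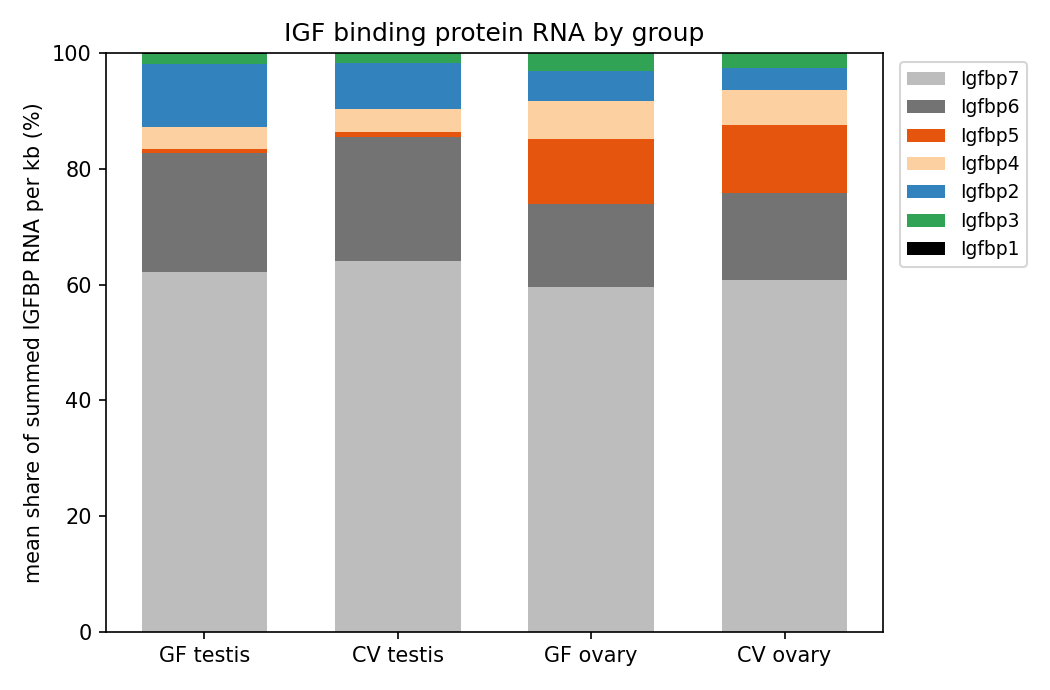
Mean share of each IGF binding protein gene in their summed RNA per kb (stacked bars, %) in GF and CV testes (left) and GF and CV ovaries (right). Igfbp5 fills 11.3% to 11.8% in the ovary and under 1% in the testis, and Igfbp2 is largest in GF testes at 11%.

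In the testis, Igfbp2 was the 1 gene of the 10 that differed between GF and CV. Its level was 11.8, 11.3 and 12.7 CPM in GF testes, against 8.65, 8.23, 10.01 and 9.4 CPM in CV testes. Every GF library was above every CV library. It rose 1.33-fold in GF testes (log2 0.41 ± 0.10 SE, adjusted p = 0.00332), with means of 11.95 ± 0.71 CPM in GF and 9.07 ± 0.79 in CV (SD). Calls over all genes made up 8.08% of those tested (3.67% higher and 4.41% lower), and 1 of 10 is near that background. Without the second CV testis, the library with the highest liver markers, the log2 fold change was 0.37 and the adjusted p 0.0177, and with any 1 library left out the adjusted p was at most 0.0389. In a fit of all 16 libraries, where ovaries and testes share 1 estimate of the spread, the call was lost (log2 0.39, adjusted p = 0.795). Of the 69 tested genes within 5 Mb of Igfbp2, 12 were called (17.4%).

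Igf1r, the receptor kinase that IGF1 activates, also did not overlap between the groups, with 15.2, 14.8 and 13.8 CPM in GF testes, against 13.3, 12.8, 12.8 and 13.7 CPM in CV testes. Groups did not overlap for 16.7% of all genes. Its log2 fold change of 0.16 ± 0.08 did not pass the test (adjusted p = 0.255). The other 8 genes overlapped and had log2 fold changes between -0.19 (Igfbp3) and 0.22 (Stat5b), with adjusted p of 0.405 and above. Igf1 was 12.9, 9.75 and 9.77 CPM in GF testes, against 12.7, 10.2, 12.3 and 12.6 CPM in CV testes. Ghr was 10.6, 6.03 and 5.9 CPM in GF testes, against 5.86, 6.07, 7.38 and 6.8 CPM in CV testes, so that 1 GF library set its higher mean. Igfbp5 had the widest error (-0.05 ± 0.57), and without the second CV testis its log2 fold change was -0.39 ± 0.18.

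Among other marker lists measured in testes, macrophage markers (4 genes) summed to 36.3 to 39.8 CPM in GF and 42.7 to 44 in CV. Smooth muscle and myoid markers (4 genes) summed to 128 to 133 CPM in GF and 136 to 156 in CV. Sertoli markers (5 genes) summed to 966 to 1014 CPM in GF and 972 to 1035 in CV. Theca and Leydig markers (5 genes) summed to 1158 to 1169 CPM in GF and 899 to 1248 in CV. The surface epithelium and oviduct list and the stroma list were drawn up for the ovary, so their sums do not count testis cells of those types. Surface epithelium and oviduct markers (6 genes) summed to 136 to 145 CPM in GF and 161 to 176 in CV. Ovarian stroma markers (5 genes) summed to 106 to 118 CPM in GF and 111 to 166 in CV, with a median log2 fold change of -0.30. In each of the macrophage (4 tested), myoid (4), surface (5) and stroma (5) lists 1 gene was called lower in GF. Of the germ cell lists, 1 of 5 spermatid markers was called lower and 1 of 4 spermatocyte markers higher. Of 4 spermatogonia markers, 0 were called. Over all genes tested, 4.41% were called lower and 3.67% higher. Endothelial markers (4 genes) summed to 26.6 to 32.2 CPM in GF and 26.5 to 31.6 in CV, with 1 gene called higher. No gene of these lists was at 0 in either group, and their part in the Igfbp2 difference was not tested.

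In the ovary, none of the 10 genes was called between GF and CV. Over all genes 32 were called (0.177% of 18095, with 0.111% higher and 0.0663% lower) and 1172 had an unadjusted p under 0.05; 2 of the 10 were among these, Igf1 and Stat5a. No other tool or setting called any of the 10. In the fit with the replicate number as a block, which leaves out the fifth GF ovary for want of a partner, 91 genes were called, against 33 in the same 8 libraries without the block. All 10 overlapped between GF and CV, while 2.81% of all genes did not. The smallest p belonged to Igf1, whose level was 135, 201, 182, 124 and 128 CPM in GF ovaries, against 185, 304, 200.3 and 196 CPM in CV ovaries. Of the GF libraries, 4 lay below the lowest CV library, and 1 CV library stood far above the rest. The Igf1 log2 fold change was -0.52 ± 0.20 (unadjusted p = 0.0267, adjusted p = 0.707). It was -0.46 with the block (adjusted p = 0.077) and in the same libraries without it (adjusted p = 0.786), and -0.33 without the second CV ovary (adjusted p = 0.972). That library also had the highest ovarian stroma marker sum, 3568 CPM, against 2116 CPM in the lowest CV ovary and 1392 to 2718 in GF ovaries. Its adipocyte marker sum (4 genes) was the highest too, 714.6 CPM, against 46.5 to 301.4 in the other CV ovaries and 25.4 to 678 in GF ovaries. Its oocyte marker sum (5 genes), 91.9 CPM, was the lowest of the CV ovaries. The part of these markers was not tested.

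Stat5a stood at 55.6, 54.2, 55.8, 39.3 and 42.5 CPM in GF ovaries, against 52.1, 67.6, 60.2 and 59.2 CPM in CV ovaries. Its log2 fold change was -0.28 ± 0.12 (adjusted p = 0.759). Stat5b, its close paralogue, was 127, 85.1, 82.9, 79.1 and 81.2 CPM in GF ovaries, against 99.3, 92.8, 87.1 and 94.2 CPM in CV ovaries (-0.04 ± 0.13). The first GF ovary was far above the other 4. Igfbp2 was 35.7, 26.3, 41.9, 50 and 39.4 CPM in GF ovaries, against 20.2, 36.6, 28.3 and 30.9 CPM in CV ovaries. Its log2 fold change of 0.41 ± 0.20 was the size seen in the testis, with adjusted p = 0.785.

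The remaining 6 genes had log2 fold changes from -0.17 (Socs2) to 0.34 (Igfbp3), each with an adjusted p of 0.873 or more. Igfbp3 spread most, over 17.9 to 61.8 CPM in GF ovaries and 16.7 to 46.2 in CV ovaries. Cish spread over 4.54 to 12.4 CPM in GF and 4.58 to 10.4 in CV. Socs2 ran over 183 to 255 CPM in GF and 209 to 288 in CV, and Igf1r over 74.6 to 121 in GF and 79 to 100.1 in CV. Ghr ranged from 73.6 to 160.5 CPM in GF and from 92.1 to 146 in CV. Marker sums also varied among ovaries, with corpus luteum genes (6) at 429 to 1799 CPM in GF and 898 to 1778 in CV. Granulosa genes (7) stood at 861 to 1753 in GF and 885 to 1527 in CV. Adipocyte genes (4) ran from 25.4 to 678 CPM in GF and from 46.5 to 714.6 in CV. The highest adipocyte sums were in CV ovary 2 (714.6), GF ovary 3 (678) and GF ovary 5 (481.9). These libraries also had the highest Ghr (145.5, 160.5 and 131.2 CPM). Cycle stage is not in the labels. Its part and that of these markers were not tested.

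**Figure D4:**
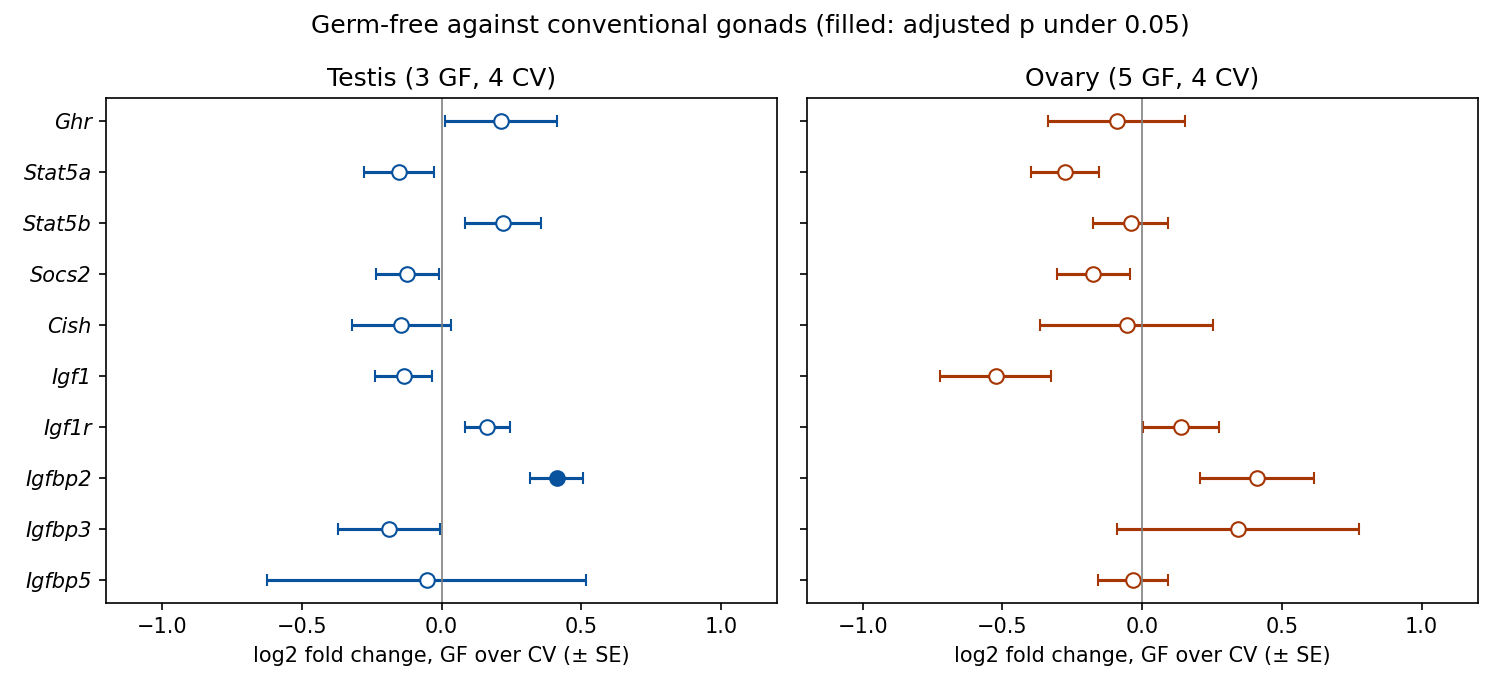
Log2 fold change, GF over CV, with its SE for the 10 genes in the testis (left; 3 GF, 4 CV) and the ovary (right; 5 GF, 4 CV); filled points passed the test. The filled point is Igfbp2 in the testis at 0.41, and Igfbp2 in the ovary is also at 0.41 but open, with an SE of 0.20.

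The difference between the tissues in the change from CV to GF was tested directly, as the testis change less the ovary change. None of the 10 genes was called, and 29 of 21977 genes were (0.132%). The log2 changes of Igfbp2, 0.41 in each tissue, differed by -0.02 ± 0.26 (adjusted p = 1). Igf1 had 0.37 ± 0.29 and Igfbp3 -0.55 ± 0.64. Differences of that size were not detectable with these errors. Of the wider pathway, Jak2 (0.30), Igf2 (-0.28), Insr (-0.14) and Prlr (0.14) were not called either.

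Across the 9 ovaries, the 45 pairs of the 10 genes were compared after subtracting group means on the log2 scale. The lowest p was that of Igf1 and Igf1r (Pearson r = -0.86, exact permutation p = 0.00313, adjusted 0.117; Spearman rho = -0.9, p = 0.00417, adjusted 0.172). Without the 2 libraries farthest from the median of Igf1, r was -0.872. Igfbp3 and Socs2 came next (r = -0.93, exact permutation p = 0.00521, adjusted 0.117; rho = -0.883, p = 0.00764, adjusted 0.172), with r = -0.839 without the 2 farthest libraries. No pair passed adjustment over the 45, by permutation of libraries within groups, two-sided. No batch is labelled for these libraries, and their marker composition varies as given above. Granulosa marker sums were highest in GF ovary 4 (1753 CPM), CV ovary 4 (1527), GF ovary 3 (1442) and CV ovary 3 (1307). Socs2 was highest in the same libraries (255, 288, 249 and 243 CPM). GF ovary 2 was the lowest in both (861 CPM for the markers and 183 for Socs2). The part of granulosa content in the Igfbp3 and Socs2 pair was not tested.

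**Figure D5:**
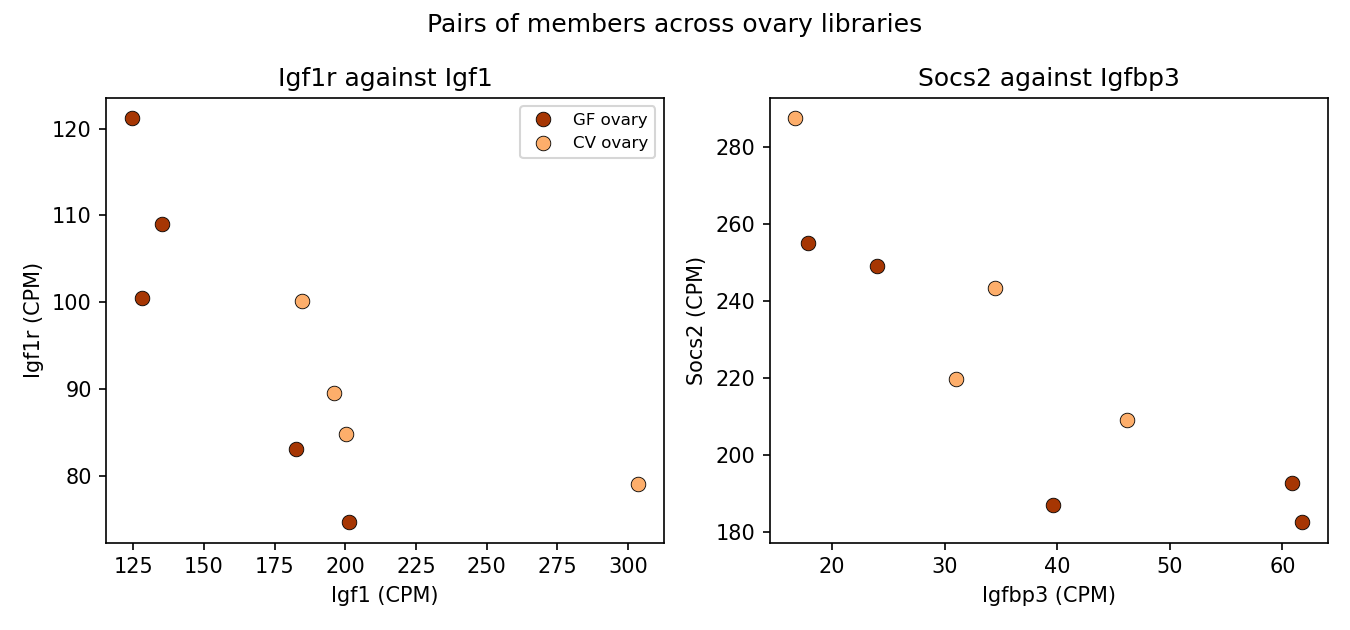
CPM of Igf1r against Igf1 (left) and of Socs2 against Igfbp3 (right) in each GF (dark) and CV (light) ovary library. The highest Igf1 library, at 304 CPM, has 79 CPM of Igf1r, and Socs2 is lower in the libraries where Igfbp3 is higher.

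As the genes most like each member, the 2 with the highest r were listed in each tissue, and the first is given here for some members as an example. Trmt10c tracked Igf1 most closely in the ovary (r = 0.995 over 9 libraries) and Dnajc30 in the testis (0.989 over 7). For Igf1r these were Tmem245 (0.987) and Ipo11 (0.981), for Ghr Chrdl1 (0.975) and Otog (0.993), and for Igfbp2 Serpina9 (0.963) and Hmgxb4 (0.992). These are the highest of 13728 genes in the ovary and are given as a description.

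Other genes of the pathway, 41 by role, gave 36 tested between the tissues. In GF mice 6 were higher and 26 lower in testis, and in CV mice 5 and 26. Over all genes tested, 45.7% were higher and 43.4% lower in GF mice, and 47.4% and 43.8% in CV mice. Without TMM the pathway counts were 3 higher and 30 lower in GF mice, and 3 and 32 in CV mice. The higher count in GF mice was 4 with the replicate block, without the filter, and without GF ovary 2 or 5 or any 1 GF testis. The insulin receptor substrate Irs1 was 4.96 CPM in GF testes, against 227 in GF ovaries, and 4.66 CPM in CV testes, against 238 in CV ovaries (log2 -5.49 and -5.65). Prlr, the prolactin receptor, was 53.4 CPM in GF testes, against 512 in GF ovaries, and 52.8 CPM in CV testes, against 557 in CV ovaries. Jak2 had log2 fold changes of -2.47 and -2.78, and Insr -2.40 and -2.27, in GF and CV mice. Igf2bp3, which binds Igf2 mRNA, was higher in testis, at 234 CPM in GF testes, against 1.12 in GF ovaries, and 217 CPM in CV testes, against 1.41 in CV ovaries. Igf2bp1 (log2 5.68 in GF and 4.85 in CV mice) and the phosphatase Ptpn1 (1.05 and 1.11) were also higher. Sh2b1 (0.42 and 0.40) and Akt2 (0.14 and 0.17) were called higher with TMM, but lower without it (-0.37 and -0.41 for Sh2b1, -0.65 and -0.64 for Akt2). With TMM the Akt2 call in GF mice (adjusted p = 0.0484) was lost without the filter (0.146), with the replicate block, and when GF ovary 1, 2 or 5 or any 1 GF testis was left out. Pappa was called in GF mice (0.83, adjusted p = 0.0303) and not in CV mice (0.24, adjusted p = 0.124), and that difference was not called in the test between tissues (0.58 ± 0.37). The call in GF mice was lost without TMM (adjusted p = 0.92), without the filter, with the replicate block, and when any 1 library other than the first GF ovary was left out. Igf2 did not pass the test (log2 0.03 in GF and 0.31 in CV mice), and without TMM it was called lower in both (-0.76, adjusted p = 0.00525, and -0.49, adjusted p = 0.011). In CV mice it was instead called higher by DESeq2, without the second CV ovary and without the fourth CV testis, so its direction depends on the scaling. The pituitary hormone genes Gh and Prl and the receptors Ghrhr and Ghsr had at most 3 counts over any group and were not tested.

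Between GF and CV testes, 5 of 34 pathway genes were called, against the 8.08% of all genes. Pappa, the protease that cuts IGF binding proteins, averaged 34.95 ± 2.87 CPM in GF testes and 27.9 ± 1.23 in CV testes, and rose (log2 0.34 ± 0.06, adjusted p = 0.000162). Grb10, an adaptor that restrains insulin and IGF receptors, rose too (56.5 ± 2.47 CPM in GF, 49.3 ± 1.23 in CV; log2 0.21, adjusted p = 0.00242), as did Igf2bp3 (0.13, 0.00398). Stat3 rose by 0.17 (adjusted p = 0.0444), a call lost by DESeq2 (adjusted p = 0.0929) and lost when any of CV testes 1, 2 and 3 or GF testes 1 and 2 was left out. The kinase Akt1 fell by 0.21 (37.4 ± 3.38 CPM in GF, 43.6 ± 1.14 in CV; adjusted p = 0.0166), a call lost without the second GF testis (adjusted p = 0.222). All 5 calls were lost in the joint fit of 16 libraries. Jak2 (0.07), Prlr (0.03), Insr (-0.05) and Igf2 (-0.05) were not called. Between GF and CV ovaries none of 35 was called, and 1 had an unadjusted p under 0.05. Jak2 (-0.25), Prlr (-0.13), Insr (0.07) and Igf2 (0.21) were not called there.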

How the data were processed

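Total RNA of whole mouse gonads was sequenced as rRNA-depleted stranded libraries, per the labels' protocols. The authors deposited raw read counts per gene, whole numbers with no normalization, as 1 table of 16 libraries. Alignment tools listed in the submitters' processing notes are STAR 2.4.0i, with mm10 as build. Which counter, annotation and strand setting were used was not given in the sources used here. Cish overlaps antisense genes over 4.07% and 7.46% of its exon length, and Stat5a overlaps Stat3 over 1.01%.

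Counts were tested with edgeR 4.0.16 (R 4.3.3; quasi-likelihood F test, robust, TMM, filterByExpr with a minimum of 10 counts), each comparison on its own groups, and checked on simulated data. Alternatives were DESeq2 1.42.0, limma-voom 3.58.1, no TMM, no filter, the replicate block, leaving out each library and a joint fit. Correlations used log2 CPM (prior count 2). Positions and exon lengths came from GENCODE M21 (GRCm38). Same-numbered ovary libraries had r of 0.256 to 0.417 over 4 pairs. Ovary pairs of unlike number ran from -0.477 (GF 1 with CV 2) to 0.435 (GF 5 with CV 2), with 0.275 for GF 4 with CV 3. High r is thus not confined to equal numbers, which are only a weak hint of pairing, and no label states a pairing. Replicate pairs differed beyond sampling noise (chi-square per degree of freedom 2.37 to 34.25).

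Members and lists were chosen with earlier results of these data known. Named were all 10 members, Igf2, Jak2, Prlr and Insr, and pathway genes called (up to 8 per direction, with those of smallest p first, of which the text gives examples). Of the 2 genes most like each member in a tissue, the text gives only the first, for Igf1, Igf1r, Ghr and Igfbp2, as examples. Nnt, named outside this rule, was chosen after its values were seen. Some pathway genes are not reported by name here, though they stay in the fits and counts.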

Additional observations from a re-analysis of the deposited data

Results flagged for a closer look

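In 3 of 30 groups of 4 or 5 libraries, 1 library stood far from the rest, where chance gives about 1 in 20. The 10 genes share the same libraries, so the 30 groups are not independent. Igf1 in the second CV ovary was 303.7 CPM, against 185 to 200.3 CPM in the other CV ovaries. Stat5b in the first GF ovary was 126.8 CPM, against 79.1 to 85.1 CPM in the other GF ovaries. Igf1 in the second CV testis, the library with the highest liver markers, was 10.23 CPM, against 12.28 to 12.7 CPM in the other CV testes. Its gap to the nearest library was 0.83 of the range, barely over the critical 0.829. The causes were not tested.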

How the results depend on the processing

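The number of members called did not change under any alternative, except in the joint fit of all libraries, where GF against CV testes gave 0 in place of 1. In the ovary 32 genes were called, against 95 with DESeq2, 91 with the replicate block, 93 in the joint fit and 25 to 33 with 1 library left out. In the testis 1638 were called, against 122 in the joint fit and 996 (without the second GF testis) to 2084 with 1 library left out; other pathway genes called were 5, against 0 in the joint fit and 3 (without the second GF testis) to 5. For the difference between tissues 29 were called, against 127 with DESeq2, which called 1 other pathway gene (Grb10), 16 in the libraries that have a partner of the same number (an alternative chosen after seeing the data), and 13 to 37 with 1 library left out.

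Some uncalled log2 fold changes turned sign with 1 library left out. They were Ghr (-0.28 to 0.046), Igfbp5 (-0.11 to 0.031), Cish (-0.26 to 0.097), Stat5b (-0.19 to 0.0048) and Prlr (-0.38 to 0.067) in GF against CV ovaries, and Ghr (-0.13 to 0.36), Igfbp5 (-0.39 to 0.23), Igf2 (-0.16 to 0.044), Jak2 (-0.017 to 0.15), Prlr (-0.048 to 0.094) and Insr (-0.14 to 0.020) in GF against CV testes. For the difference between tissues they were Ghr (-0.054 to 0.48), Igf1r (-0.076 to 0.094), Igfbp2 (-0.15 to 0.12), Igfbp5 (-0.37 to 0.24), Socs2 (-0.067 to 0.11), Cish (-0.26 to 0.099), Stat5a (-0.0072 to 0.17) and Prlr (-0.057 to 0.39), and for testis over ovary in GF mice Igf2 (-0.075 to 0.14).

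Without TMM, testis over ovary turned for Igf2 (-0.76 in GF and -0.49 in CV mice), Sh2b1 (-0.37 and -0.41) and Akt2 (-0.65 and -0.64). The replicate block gave 0.20 for Igfbp5 in the testis and, for the difference between tissues, 0.0022 for Igfbp2, 0.26 for Igfbp5, -0.071 for Socs2 and 0.065 for Cish. In the libraries with a partner and no block, Stat5b gave 0.0004 in the ovary, Igfbp5 0.089 in the testis, and Igfbp5 0.18, Socs2 -0.079 and Cish 0.072 for the difference. With limma-voom Igfbp5 gave 0.25 in the testis and 0.28 for the difference, and with DESeq2 Igf1r gave -0.0022. Numbers in the testis do not pair the libraries (r -0.02 to 0.056), nor across tissues (-0.037 to 0.027 in CV and -0.049 to -0.008 in GF mice). The block leaves out libraries with no partner (the fourth CV testis and the fifth GF ovary within tissues). In the testis it gave 1692 genes, against 2084 in the same libraries without it, and the Stat3 call was lost with it (adjusted p = 0.0608). The block changed no call among the 10 members; it also ended the Pappa and Akt2 calls between tissues in GF mice. The causes of these shifts were not tested. The spread between ovaries limits the changes that can be seen there.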
